A study of Homo sapiens with 7 samples.

Results

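The let-7 family members and miR-98 were followed here in the sEVs (small extracellular vesicles) of HepG2, a line of human liver cancer cells. They were taken by name from a table of 2656 mature miRNAs, as the 5p arms of let-7a, let-7b, let-7d, let-7f, let-7g and let-7i and of miR-98, which gave 7 members, and all 7 were found. The sEVs came from cells that carried a lentiviral short hairpin RNA against SYNCRIP (shSYNCRIP, 4 libraries) or a scrambled control hairpin (shCTR, 3 libraries). SYNCRIP is an RNA-binding protein known as a loader of miRNAs into sEVs, and the question of the comparison was which miRNAs depend on it for this. According to the study's methods the infected cells were selected with puromycin, and doxycycline was given to induce the hairpins. The medium held serum depleted of sEVs, and the culture time before collection was the same for every library. Whether single clones or pools were used is not given in the sources used here. All sample titles name HepG2, whereas in a cell line field of the labels the number in the name rises from each library to the next. This was taken as an artefact of filling in the field, and all libraries were treated as HepG2. The level of the hairpin target cannot be read from the table used here, which counts miRNAs only. The study itself reported lower SYNCRIP RNA and protein in the shSYNCRIP cells, and it speaks of a partial reduction of the protein.

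The let-7 miRNAs are among the most conserved miRNAs of animals. They accumulate as cells differentiate, their maturation is blocked by the LIN28 proteins, and they repress growth-promoting mRNAs such as those of HMGA2 and the RAS genes. A mature miRNA finds its targets mainly through its seed, the bases from position 2 to position 8, so members with the same seed share most of their predicted targets. The mature sequences are the same in many vertebrates, cattle included, so the count of a member does not tell the species of the molecule.

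The sequences of the 7 members are shown because they decide how well reads of one can be told from reads of another. They are given 5′ to 3′ from RefSeq (GRCh38.p14), in which 7 of 7 were matched, with the seed in capitals.
hsa-let-7a-5p: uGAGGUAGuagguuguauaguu
hsa-let-7f-5p: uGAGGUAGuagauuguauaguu
hsa-let-7g-5p: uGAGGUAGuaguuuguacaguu
hsa-let-7i-5p: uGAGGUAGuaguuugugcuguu
hsa-let-7d-5p: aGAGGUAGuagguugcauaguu
hsa-let-7b-5p: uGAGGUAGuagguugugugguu
hsa-miR-98-5p: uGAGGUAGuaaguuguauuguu
All 7 had the seed GAGGUAG and a length of 22 bases. No correction for length was made for any miRNA. Counting from 1 at the 5′ end and with the base of let-7a-5p first, let-7f-5p differed from let-7a-5p by G12A alone. let-7b-5p differed by A17G and A19G, let-7d-5p by U1A and U16C, and let-7g-5p by G12U and U18C. miR-98-5p differed by G11A and A19U, and let-7i-5p, the most distant from let-7a-5p, by G12U, A17G, U18C and A19U. How reads that fit more than one mature sequence were counted is not given in the sources used here. miR-199a-3p and miR-199b-3p, which have the same mature sequence, had identical counts in 7 of 7 libraries. Whether reads that fit several members were likewise counted under each was not tested, and this bears on the summed share of the members and on the correlations between them. Of the 2370 mature names in the RefSeq table, 11 had this seed. These were the 7 members, let-7c-5p, let-7e-5p, miR-4458 and miR-4500.

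The members are made from 10 hairpin genes on 6 chromosomes, placed here on GRCh38 with the gene annotation of GENCODE release 29. let-7a-5p (chr9:94175962-94175983), let-7f-5p (chr9:94176353-94176374) and let-7d-5p (chr9:94178841-94178862) lie next to each other on the plus strand, in introns of the long noncoding RNA AL158152.2. let-7a-5p has 2 further copies. One lies in an intron of MIR100HG on chromosome 11 (chr11:122146568-122146589, minus strand). The other lies in an exon of MIRLET7BHG on chromosome 22 (chr22:46112752-46112773, plus strand), as does let-7b-5p (chr22:46113691-46113712). miR-98-5p (chrX:53556299-53556320) and the other copy of let-7f-5p (chrX:53557246-53557267) lie in introns of HUWE1, on its strand. let-7g-5p (chr3:52268336-52268357) lies in an intron of WDR82, also on its strand, and let-7i-5p (chr12:62603691-62603712) in an intron of the long noncoding RNA AC048341.1. The mature sequence of a member with several hairpins does not show from which of them it came.

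The libraries held between 29863 and 388226 miRNA counts and between 100 and 275 detected miRNAs. The library with the fewest counts was shSYNCRIP replicate 2, and the one with the fewest miRNAs was shSYNCRIP replicate 4. Liver miRNAs (5 listed) took 0.523% to 1.01% of the counts in shCTR and 0.272% to 1.49% in shSYNCRIP. Among them miR-122-5p was counted in every library, miR-192-5p had 2 counts in all and miR-885-5p had 0. Blood cell miRNAs (7 listed, 7 detected) took 10.9% to 19.9% in shCTR and 8.85% to 13.9% in shSYNCRIP, mostly miR-486-5p. Their part in the results on the members was not tested. Levels are given below as CPM, counts scaled to a common library total after TMM, a method of edgeR that evens out differences in composition between libraries. They are relative to the other miRNAs of a library, so fewer sEVs, fewer miRNAs per sEV and a change of other miRNAs cannot be told apart in them.

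Together the 7 members took between 7.23% and 11.6% of the miRNA counts of a library, and the 2 groups could not be told apart by this share. The share was 9.65%, 11.6% and 7.32% in shCTR replicates 1, 2 and 3, and 8.42%, 7.23%, 9.76% and 10.5% in shSYNCRIP replicates 1, 2, 3 and 4. The groups overlapped over most of their range, and the highest and the next to lowest share both belonged to shCTR. The means were 9.51% ± 2.12 (SD, n = 3) in shCTR and 8.97% ± 1.44 (SD, n = 4) in shSYNCRIP, a difference of -0.54 percentage points that was smaller than the SD within either group. The sign of this difference turned without shCTR replicate 2 (0.49) or without shSYNCRIP replicate 2 (0.04). The Wilson 95% interval of a single share was at its widest in shSYNCRIP replicate 2, from 6.95% to 7.53% of 29863 counts. The lowest and the highest share lay much further apart than this interval is wide. Such intervals cover counting error only, and they take reads as independent. Amplified reads are not independent molecules, so the intervals can be too narrow.

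No member was called lower or higher in shSYNCRIP sEVs. The study's criteria ask for a nominal p below 0.1 together with a fold-change value beyond 0.5, which was read here as log2. With these in limma-voom, 0 of the 7 members were lower, against 12.8% of the 117 miRNAs tested, and 0 were higher, against 5.13%. After Benjamini-Hochberg adjustment over all 117, 0 members passed an adjusted p of 0.05 by limma-voom (2.56% of all tested), by the quasi-likelihood test of edgeR (0.0% of all tested) or by DESeq2 (2.56% of all tested). At an unadjusted p under 0.05 the count of members was 0 in limma-voom and 0 in the quasi-likelihood test, against 10.3% and 1.71% of all tested. For 0 of the 7 members did the groups part without overlap, which 4.27% of the 117 did with shSYNCRIP lower and 2.56% with shSYNCRIP higher, 6.84% in all. The median limma-voom log2 fold change was 0.05 over the members and -0.07 over all 117. Of the 7 values 5 lay above 0, but 1 did with the size factors of DESeq2, which moved the median of all 117 by -0.20. The limma-voom nominal p of the members lay between 0.526 for let-7g-5p and 0.988 for let-7i-5p, and the adjusted p was 0.992 for each.

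**Figure D1:**
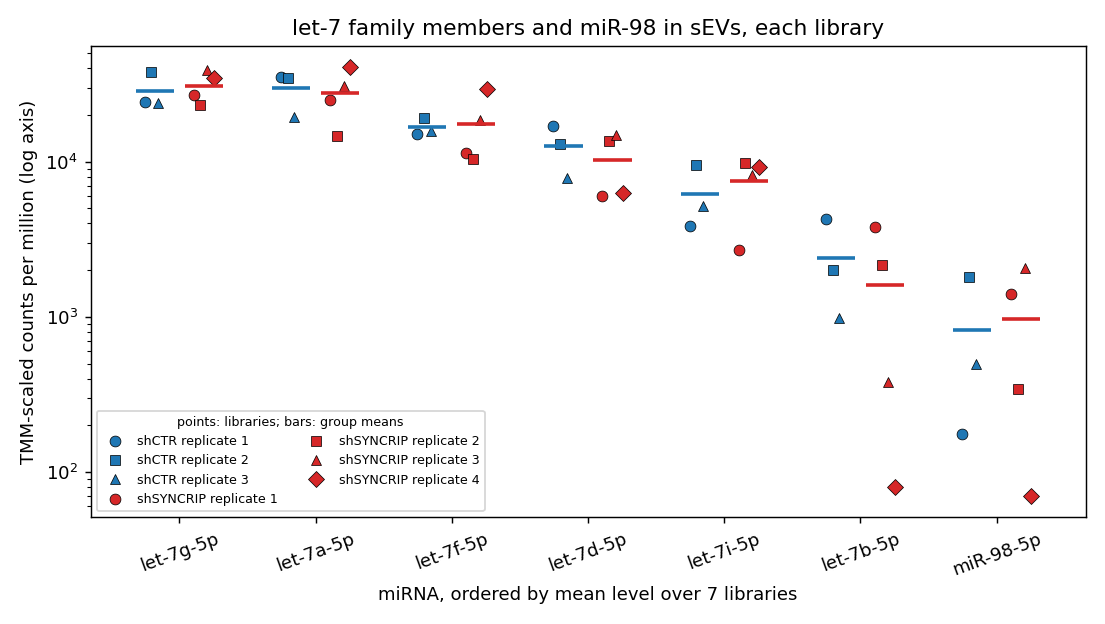
Level of each member in each library, in TMM-scaled CPM on a log axis, with blue points for the 3 shCTR and red points for the 4 shSYNCRIP libraries, a marker shape per replicate number and a bar at each group mean. The groups overlap for every member, and the lowest points of let-7b-5p (80.1 CPM) and miR-98-5p (70.1 CPM) are both shSYNCRIP replicate 4.

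let-7g-5p was the most abundant member and the steadiest. Its levels were 24205, 37810 and 24079 CPM in shCTR replicates 1, 2 and 3 and 26775, 23281, 38807 and 34906 CPM in shSYNCRIP replicates 1, 2, 3 and 4. Both groups held libraries near the lower and near the upper end of this range, whose highest level was 1.67 times its lowest. The mean was 28698 ± 7892 CPM (SD, n = 3) for shCTR, against 30942 ± 7156 CPM (SD, n = 4) for shSYNCRIP, with a log2 fold change of 0.28 in limma-voom (standard error, SE, 0.44, 95% confidence interval -0.59 to 1.15). The interval corresponds to a fold between 0.662 and 2.22. With each library left out in turn, and the low-count filter and scaling run anew, the value lay between -0.19 and 0.08. This was below 0.28 each time. The lower limit of the interval reached -1.29 without shSYNCRIP replicate 3. With no filter on low counts the value was -0.23 and the lower limit -1.33. It ranked between 5 and 10 in abundance among the miRNAs of each library.

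let-7a-5p, the member with the most hairpin copies, had 35123, 34783 and 19528 CPM in shCTR and 24896, 14650, 30672 and 40591 CPM in shSYNCRIP. The highest and the lowest library were both shSYNCRIP. On average it reached 29811 ± 8907 CPM (SD, n = 3) in the controls, against 27702 ± 10850 CPM (SD, n = 4) after knockdown. In limma-voom its log2 fold change was 0.23 (SE 0.46, 95% confidence interval -0.69 to 1.14), above 0 although the mean after knockdown was the lower. The quasi-likelihood value and the DESeq2 value were both -0.11. Of 17 alternatives, 13 gave let-7a-5p a sign opposite to that of the main value.

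let-7f-5p, which differs from let-7a-5p by a single base, had 15114, 19215 and 15708 CPM in shCTR and 11390, 10489, 18699 and 29452 CPM in shSYNCRIP. The shCTR libraries lay inside the range of the shSYNCRIP libraries. In limma-voom its log2 fold change was 0.05 (SE 0.57, 95% confidence interval -1.09 to 1.19). Its counts were between 43.0% and 80.4% of those of let-7a-5p in the same library, with both extremes in shCTR.

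let-7d-5p, the member with another first base (U1A), had 16979, 12944 and 7898 CPM in shCTR and 6032, 13549, 14944 and 6285 CPM in shSYNCRIP. shSYNCRIP replicates 1 and 4 lay below the lowest shCTR library, and replicates 2 and 3 lay among the shCTR libraries. The means were 12607 ± 4550 CPM (SD, n = 3) and 10202 ± 4706 CPM (SD, n = 4), and the log2 fold change was -0.17 in limma-voom (SE 0.70, 95% confidence interval -1.56 to 1.23).

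let-7i-5p had 3837, 9597 and 5154 CPM in shCTR and 2685, 9801, 8217 and 9217 CPM in shSYNCRIP. Within shSYNCRIP 3 libraries lay close together and replicate 1 lay well below them, also below the lowest shCTR library. In limma-voom its log2 fold change was 0.01 (SE 0.89, 95% confidence interval -1.77 to 1.80).

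let-7b-5p and miR-98-5p were the scarcest members and the most uneven. let-7b-5p had 4245, 1997 and 985 CPM in shCTR, and 3783, 2166, 382 and 80.1 CPM in shSYNCRIP. shSYNCRIP replicate 4 held 8 counts of it, against 63 to 624 counts in the other libraries of that group and 287 to 437 in shCTR. Its highest level was 53.0 times its lowest, and its log2 fold change of -0.96 in limma-voom had an SE of 2.00 and a 95% confidence interval from -4.95 to 3.04. shSYNCRIP replicates 3 and 4 lay below every shCTR library, and replicates 1 and 2 did not.

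miR-98-5p, processed from an intron of HUWE1 beside one let-7f copy, had 175, 1816 and 494 CPM in shCTR and 1406, 344, 2066 and 70.1 CPM in shSYNCRIP. Low libraries were found in both groups, with 18 counts in shCTR replicate 1 and 10 and 7 counts in shSYNCRIP replicates 2 and 4. Its log2 fold change of 0.05 in limma-voom had an SE of 2.53 and a 95% confidence interval from -5.02 to 5.11, that is, a fold between 0.0308 and 34.6. Without shSYNCRIP replicates 2 and 4 the value was 1.47, and without shSYNCRIP replicate 3 it was -0.89, so changes of this size could not be told from 0 for miR-98-5p.

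**Figure D2:**
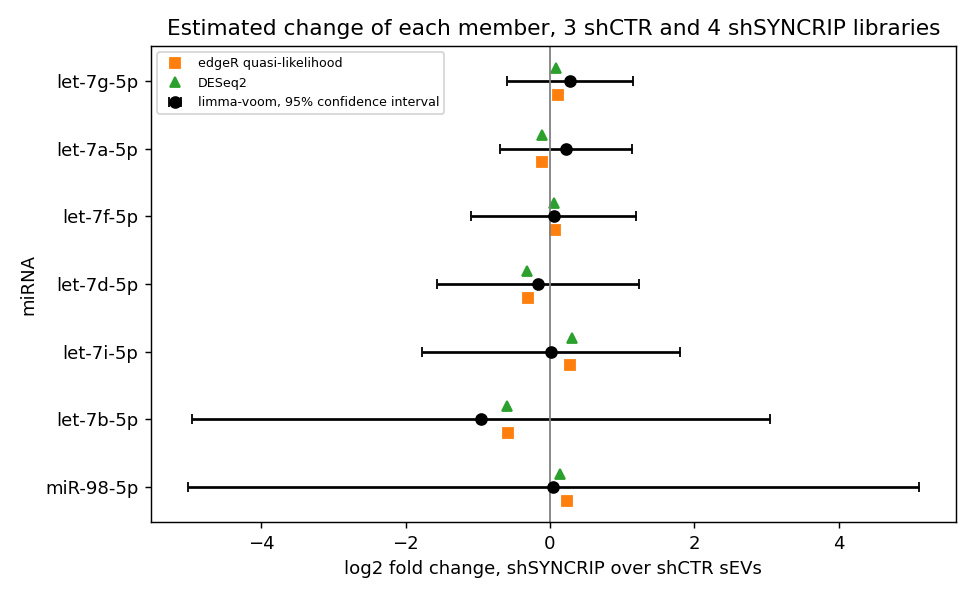
Log2 fold change of each member, shSYNCRIP over shCTR sEVs, from limma-voom with its 95% confidence interval (black), the quasi-likelihood test of edgeR (orange) and DESeq2 (green). The interval of every member includes 0, and it runs from -0.59 to 1.15 for let-7g-5p but from -5.02 to 5.11 for miR-98-5p.

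The order of the members by mean level over the 7 libraries was let-7g-5p, let-7a-5p, let-7f-5p, let-7d-5p, let-7i-5p, let-7b-5p and miR-98-5p. Among neighbours in this order, let-7a-5p lay above let-7f-5p in 7 of 7 libraries, by 0.74 ± 0.35 (SD of the log2 difference, n = 7). For the other 5 neighbouring pairs the mean log2 difference was smaller than its SD. let-7g-5p lay above let-7a-5p in 5 of 7 libraries (0.11 ± 0.39), with shCTR replicate 1 and shSYNCRIP replicate 4 the other way. let-7i-5p lay above let-7b-5p by 2.46 ± 2.48, but not in shCTR replicate 1 and shSYNCRIP replicate 1. Differences in level between miRNAs also hold differences in how well each is ligated and amplified, and these were not measured here.

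**Figure D3:**
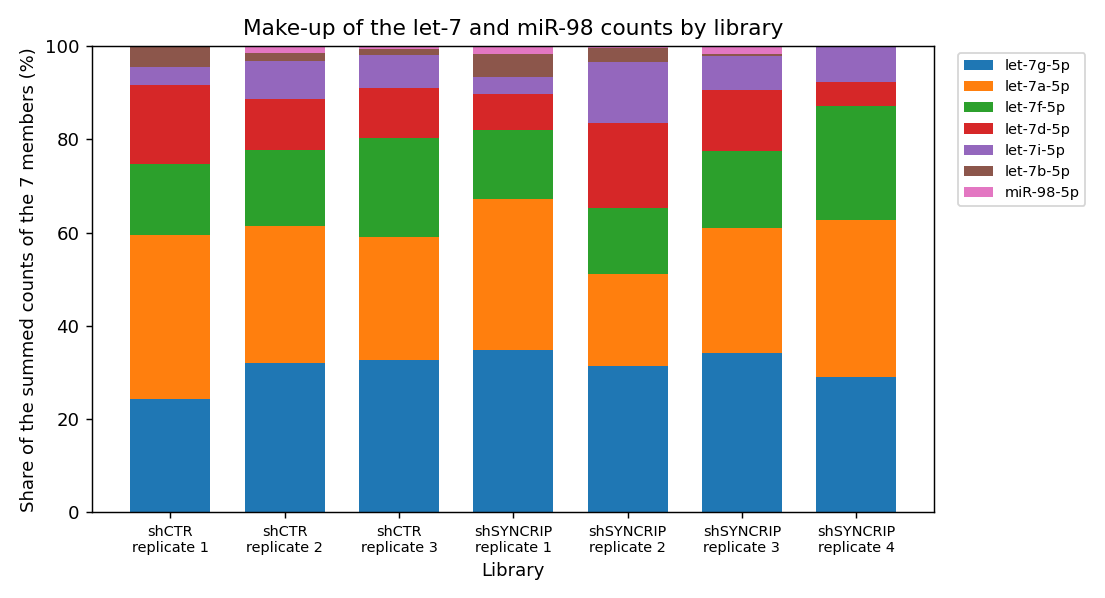
Share of each member in the summed counts of the 7 members, in percent, 1 bar for each library. let-7g-5p, let-7a-5p and let-7f-5p together fill between 65.2% (shSYNCRIP replicate 2) and 87.0% (shSYNCRIP replicate 4) of a bar.

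The make-up of the family differed more between replicates than between groups. let-7g-5p, let-7a-5p and let-7f-5p together held 77.6% ± 2.82 (SD, n = 3) of the members' counts in shCTR and 77.9% ± 9.33 (SD, n = 4) in shSYNCRIP. In shSYNCRIP replicate 2 their share was lowest, at 65.2%, with let-7d-5p at 18.2% and let-7i-5p at 13.2%. In shSYNCRIP replicate 4 it was highest, at 87.0%, with let-7b-5p at 0.0664% and miR-98-5p at 0.0581%. The largest member was let-7a-5p in shCTR replicate 1 and shSYNCRIP replicate 4 and let-7g-5p in the other 5 libraries.

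Levels of most members were steady in comparison with most sEV miRNAs, but about as steady as those of other abundant miRNAs. The SD between replicates, pooled over the groups on the log2 CPM scale, was 0.35 for let-7g-5p, the smallest of the 117 miRNAs tested. It was 0.55 for let-7f-5p, 0.57 for let-7a-5p, 0.65 for let-7d-5p, 0.80 for let-7i-5p, 1.94 for miR-98-5p and 2.00 for let-7b-5p. For miR-98-5p and let-7b-5p, 42 and 43 of the miRNAs tested had a smaller SD. The median was 0.65 over the 7 members, against 2.47 over all 117 and 0.70 over the 20 most abundant. let-7g-5p, let-7a-5p and let-7f-5p belonged to these 20, and each lay below the median of the 20 and that of all 117. A member had 0 counts in 0 of 49 values, so all 7 members were counted in every library. Of the 117 miRNAs tested, 56 (47.9%) had a count of 0 in at least 1 library. Other abundant miRNAs, such as miR-486-5p, miR-16-5p and miR-191-5p, were likewise counted in every library. let-7a-5p, let-7d-5p, let-7f-5p, let-7g-5p and let-7i-5p were never below 285 counts.

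**Figure D4:**
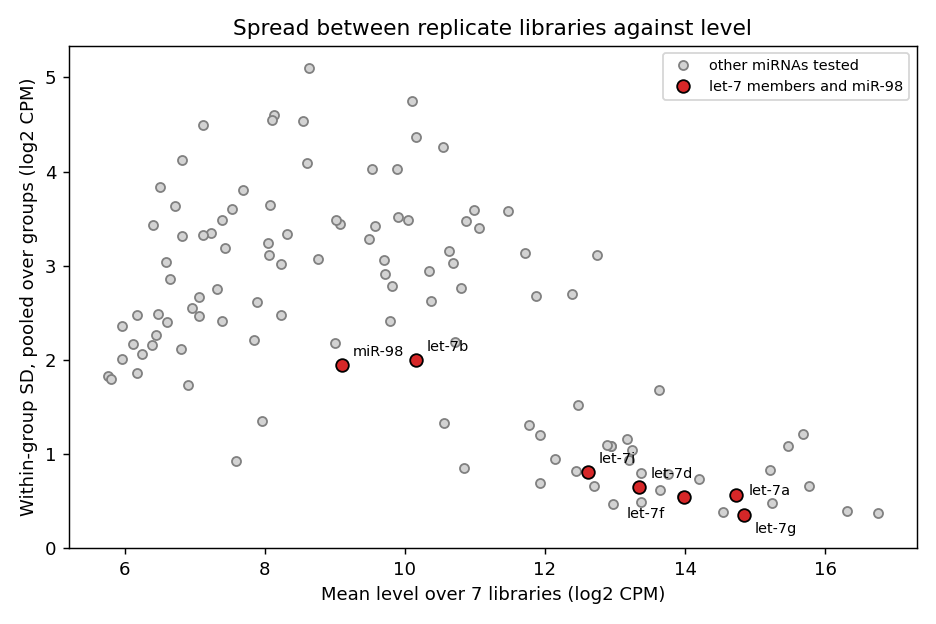
SD between replicates within groups (log2 CPM, pooled over shCTR and shSYNCRIP) against the mean level over 7 libraries (log2 CPM), 1 point for each of the 117 miRNAs tested, members in red. let-7g-5p lies lowest of all points at 0.35, and let-7b-5p and miR-98-5p lie near 2.

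Among themselves the most abundant members, let-7g-5p, let-7a-5p and let-7f-5p, varied alike over the 7 libraries. Pearson's r on log2 CPM was 0.78 between let-7a-5p and let-7f-5p (Spearman's rho 0.71), 0.72 between let-7f-5p and let-7g-5p (rho 0.71) and 0.67 between let-7a-5p and let-7g-5p (rho 0.57). let-7d-5p, from the same cluster on chromosome 9 as copies of let-7a-5p and let-7f-5p, had an r of -0.00 with let-7a-5p and -0.18 with let-7f-5p. Its r with let-7g-5p was 0.03. For let-7i-5p the r was 0.03 with let-7a-5p (rho -0.11), 0.45 with let-7f-5p (rho 0.21) and 0.51 with let-7g-5p (rho 0.0). let-7b-5p went the opposite way to let-7f-5p (r -0.82, rho -0.75). miR-98-5p and let-7f-5p, whose hairpins share an intron-bearing gene on chromosome X, had an r of -0.31 (rho 0.04). These correlations are descriptions over 7 libraries, which share the scaling and hold both groups, and the low counts of let-7b-5p and miR-98-5p weigh on their values. Outside the family, the miRNAs most like the summed members were miR-199a-3p and miR-199b-3p, with an r of 0.84 (rho 0.82, 7 libraries) each. With their identical counts they stand for a single measurement. miR-30d-5p followed with an r of 0.73 (rho 0.75). It had 3445 CPM in shCTR replicate 2 and 2082 CPM in shSYNCRIP replicate 4, but between 0 and 97.1 CPM in the other libraries. These miRNAs were picked for the highest r among those tested outside the family, so their high r follows from the choice.

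The remaining let-7 arms and seed-sharing miRNAs were described alongside the members. let-7c-5p, which differs from let-7a-5p by A19G alone, had 5449, 2018 and 2718 CPM in shCTR and 6668, 5743, 2362 and 5014 CPM in shSYNCRIP (log2 fold change 0.50 in limma-voom, SE 1.14). let-7e-5p, which differs by U9G alone, had 340, 1615 and 1159 CPM in shCTR and 1903, 4574, 3005 and 3943 CPM in shSYNCRIP. All of its shSYNCRIP libraries lay above all of its shCTR libraries, as for 2.56% of the miRNAs tested, but its log2 fold change of 1.55 in limma-voom had an SE of 1.86 and an adjusted p of 0.971. Among the miRNAs with at least 10 counts in every library, its log2 fold change of 1.68 (SE 0.84) met the study's criteria in limma-voom, with a nominal p of 0.0553 and an adjusted p of 0.861. DESeq2 gave let-7e-5p a nominal p of 0.0437 and an adjusted p of 0.540. Over its limma-voom alternatives the value lay between 0.87, without shCTR replicate 1, and 1.78, without shCTR replicate 3. With let-7c-5p and let-7e-5p added, the family's share of counts was 9.94% ± 2.12 (SD, n = 3) in shCTR and 9.77% ± 1.28 (SD, n = 4) in shSYNCRIP. miR-4458 and miR-4500, which share the seed, had 0 counts in every library, where the Wilson 95% upper limit of the share was 0.00099% in the deepest and 0.0129% in the shallowest library.

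The counts came almost wholly from the 5p arms. Of 11 listed 3p arms of let-7 and miR-98 hairpins, 6 had 0 counts in every library and 1, let-7d-3p, passed the filter on low counts. let-7d-3p had 1372 counts in all and the other 10 together had 5, against 112404 counts on the 9 5p arms. The let-7d hairpin (chr9:94178834-94178920, plus strand, GRCh38.p14) is shown as the only one with both arms in the sEV counts at length, with the 5p arm and then the 3p arm in capitals.
MIRLET7D: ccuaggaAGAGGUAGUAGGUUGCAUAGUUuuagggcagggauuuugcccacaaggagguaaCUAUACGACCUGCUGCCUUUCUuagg
The 3p arm held 1.30%, 0% and 26.1% of the counts of both let-7d arms in shCTR replicates 1, 2 and 3. It held 20.8%, 1.01%, 0.387% and 0% in shSYNCRIP replicates 1, 2, 3 and 4. High values thus stood in 1 library of each group, shCTR replicate 3 with 1071 counts (Wilson 95% interval 24.7% to 27.4%) and shSYNCRIP replicate 1 with 262 counts (18.7% to 23.2%). For let-7d-3p limma-voom gave a log2 fold change of -0.51 with an SE of 2.71. This value was -4.18 without shCTR replicate 2, but 1.69 without shCTR replicate 3, 0.59 without shSYNCRIP replicate 4 and 1.01 with the replicate number as a block.

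The neighbours of the let-7a copy in MIR100HG, miR-100-5p and miR-125b-5p, are given for comparison with let-7a-5p. miR-100-5p had 33, 436 and 1175 counts in shCTR and 571, 169, 653 and 2 counts in shSYNCRIP. miR-125b-5p had 36, 205 and 526 counts in shCTR and 100, 20, 271 and 1 counts in shSYNCRIP. In shSYNCRIP replicate 4 both were thus nearly absent, whereas let-7a-5p had 4056 counts in it. In CPM, though not in counts, this was the highest level of let-7a-5p in any library. Neither was called (log2 fold changes of -0.68, SE 2.05, and -1.67, SE 2.37, in limma-voom). Both values changed with the libraries included. Without shSYNCRIP replicate 4 they were 0.35 for miR-100-5p and -0.58 for miR-125b-5p. For miR-100-5p the sign also turned without shCTR replicate 3 (0.12), with the replicate number as a block (0.63) and in the quasi-likelihood test (0.54), whereas without shSYNCRIP replicate 2 the value was -1.67.

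SYNCRIP is known to bind a 6-base element, the hEXO motif, which was searched as 3 bases other than C, then a base other than U, then A or U, then G or C, outside the first 7 bases. The search was made on the given strand, and matches may overlap. Of the 7 members, 3 held a match, let-7b-5p (first match GUUGUG at position 12), let-7g-5p (GUACAG at position 15) and let-7i-5p (UUUGUG at position 12). let-7a-5p, let-7d-5p, let-7f-5p and miR-98-5p held 0 matches. For comparison, 63.6% of the 2370 mature names in RefSeq and 61.9% of the 105 tested miRNAs with a RefSeq sequence held a match. The limma-voom log2 fold changes were -0.96, 0.28 and 0.01 for the members with a match and between -0.17 and 0.23 for those without, and members of neither kind were called. A match is a description of the letters, and no match says only that they are not in the sequence.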

How the data were processed

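Small RNA-seq was made from sEVs of HepG2 cells, 3 shCTR and 4 shSYNCRIP biological replicates, with table columns matched to the samples through group and number as titles give them. The deposited values are read counts, not scaled, 1 row for each mature miRNA. To make them the authors removed adapters with FastqToolkit, filtered reads by length and quality with Cutadapt and counted forward reads against miRBase sequences with MiRDeep2. From these, miRNAs were kept by filterByExpr of edgeR (117 of 2656), scaled by TMM and fitted over the whole table with limma-voom, the study's own choice. The same miRNAs were also tested by quasi-likelihood in edgeR, and p-values were adjusted by Benjamini-Hochberg over the 117. DESeq2 was a further test. R 4.3.3, edgeR 4.0.16, limma 3.58.1, DESeq2 1.42.0 and Python 3.11.15 were used. log2 CPM used a prior count of 2. The tests were checked on simulated data with large known changes. A high share of these had to be found only where replicates varied far less than here. The check thus does not show how many changes the tests would miss in these data.

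Totals between 29863 and 388226 counts limit the precision of rare members. The members, the lists and the tests were chosen with earlier results of these data known. Named miRNAs were the members, the other let-7 arms and seed-sharing miRNAs, the hairpin neighbours of let-7a and the 3 miRNAs with the highest Pearson's r with the summed members. Liver and blood cell lists were written from general knowledge. Alternatives were other size factors, filters, tests and cut-offs, sample quality weights, a replicate block and libraries left out. Where a library was left out of a fit, the low-count filter and the scaling were run anew. The study's other assays were not used here.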

Additional observations from a re-analysis of the deposited data

Results flagged for a closer look

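let-7i-5p stood apart from the rest of its group in the shSYNCRIP library with number 1, where its log2 CPM was 11.4. It had 443 counts there, or 2685 CPM, against 8217 to 9801 CPM in the other shSYNCRIP libraries, and the gap to its nearest neighbour was 0.864 of the range of the group (above the 95% critical value of Dixon's test for 4 samples). shCTR replicate 1 had a similar level of 3837 CPM. The test covered 15 groups of 4 shSYNCRIP libraries, namely the level of each member, its share among the members and the summed share, and singled out 1, where chance gives about 0.75.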

How the results depend on the processing

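The number of members called stayed at 0 under every alternative run, for the study's criteria, for the adjusted p and for groups without overlap. The replicate block also gave 0 members by either test. The main fits did not treat same-numbered libraries of the groups as pairs. The deviations of same-numbered libraries had correlations of -0.06, -0.03 and 0.09. With so few libraries, these values cannot show whether same-numbered libraries were prepared together. The signs of the estimates were not settled, and the cause was not tested. Of 117 estimates under alternatives, 51 changed sign and 0 met the criteria (smallest nominal p 0.233).

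Relative to main values of 0.23 for let-7a-5p, -0.17 for let-7d-5p, 0.05 for let-7f-5p, 0.28 for let-7g-5p, 0.01 for let-7i-5p and 0.05 for miR-98-5p, the log2 fold changes of opposite sign were these. For let-7a-5p they were -0.11 with the quasi-likelihood test, -0.11 with DESeq2, -0.041 with DESeq2 size factors, -0.35 with no filter, -0.12 with at least 10 counts in every library, -0.023 with the replicate block and -0.074 without shSYNCRIP replicates 2 and 4. For let-7f-5p they were -0.19 with DESeq2 size factors, -0.42 with no filter, -0.17 with at least 10 counts in every library, -0.16 with a minimum of 1 CPM in 3 libraries, -0.092 with the replicate block, -0.30 without shSYNCRIP replicates 2 and 4 and -0.16 with sample quality weights. For let-7i-5p they were -0.27 with DESeq2 size factors, -0.34 with no filter, -0.086 with 1 CPM in 3 libraries, -0.32 without shSYNCRIP replicates 2 and 4 and -0.27 with sample quality weights. For miR-98-5p they were -0.020 with DESeq2 size factors, -0.27 with no filter and -0.056 with 1 CPM in 3 libraries. Of the same sign but far from the main value, miR-98-5p gave 1.32 with the replicate block and 1.47 without shSYNCRIP replicates 2 and 4, and let-7b-5p (main value -0.96) gave -0.29 with sample quality weights, -0.37 with the replicate block and -1.87 with no filter. let-7g-5p gave -0.23 with no filter, and let-7d-5p 0.015 with the replicate block. DESeq2 size factors moved the median of all 117 miRNAs by -0.20. At least 10 counts in every library removed let-7b-5p and miR-98-5p.

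With each library left out in turn, the estimates ran from -0.41 to 0.043 for let-7a-5p, from -1.99 to -0.88 for let-7b-5p, from -1.01 to -0.22 for let-7d-5p, from -0.57 to 0.037 for let-7f-5p, from -0.19 to 0.082 for let-7g-5p, from -0.71 to 0.23 for let-7i-5p and from -0.89 to 0.80 for miR-98-5p. The low-count filter and the scaling were run anew in each of these fits. The ranges thus hold the effect of both together with that of the library left out. For let-7a-5p, let-7d-5p, let-7f-5p and let-7g-5p the main value lay above the whole range, and the cause was not tested. The difference in the summed share ran from -1.63 (without shCTR replicate 3) to 0.49 percentage points (without shCTR replicate 2).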
